A study of Homo sapiens and Mus musculus with 10 samples.

Results

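The genes described are those of the lysosome: soluble hydrolases, membrane proteins, the factors TFEB, TFE3 and MITF, and every entry of the vacuolar proton pump (V-ATPase). They were taken by symbol, as 41 named genes and all symbols that begin with ATP6V or ATP6AP. This gave 70 of 27800 entries in the table of the human line and 67 of 24493 in that of the mouse line. Levels are TPM, which are scaled for transcript length and for the total of a library. A gene was tested where its mean over a line's libraries reached 1 TPM, which held for 58 human and 56 mouse members. The other 12 human and 11 mouse members had means of at most 0.635 and 0.59 TPM, and 3 and 4 of them were listed at 0 in every library.

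The series asked how WM-1119, an inhibitor of the histone acetyltransferase KAT6A, alters transcription in myeloid cells. MOLM-13, a human acute myeloid leukaemia line with an MLL fusion gene, was given 4 µM WM-1119 for 4 days in 3 libraries, against 3 DMSO libraries. ER-Hoxa9, a mouse myeloid progenitor line kept immature by an estrogen-dependent HOXA9, was given 2 µM WM-1119 for 4 days in 2 libraries, against 2 DMSO libraries. All ER-Hoxa9 cells, with and without the drug, grew in medium with stem cell factor and 0.5 µM β-estradiol, the estrogen on which HOXA9 activity depends. The labels give no time for DMSO. They also do not say whether the replicates are separate cultures, and if not, the spread behind each p-value is technical. Each group is a single cell line in culture, and dose and species differ between the lines.

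Lysosomes break down proteins, glycans, lipids and nucleic acids with hydrolases that work at acid pH. The V-ATPase supplies the acid: its cytosolic V1 part splits ATP and its membrane V0 part moves protons. TFEB, TFE3 and MITF are related transcription factors that bind a short DNA motif, called CLEAR, before many lysosomal genes. In neutrophils, monocytes and macrophages, lysosomes and related granules digest engulfed material, and these genes are abundant in such cells.

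No member passed the test in either line: limma on log2(TPM + 1) called 0 of 58 in MOLM-13 and 0 of 56 in ER-Hoxa9 at an adjusted p under 0.05. The lowest limma adjusted p of a member was 0.99999 in MOLM-13 and 0.305 in ER-Hoxa9. Over all genes that threshold called 0.0% higher and 0.00804% lower in MOLM-13, and 0.0176% in each direction in ER-Hoxa9. All values below are therefore measured levels and differences, none of which was called. Fold changes are differences in log2(TPM + 1) between WM-1119 and DMSO, positive where WM-1119 is higher, and each SE is limma's. The added 1 TPM makes the fold change of a low gene too small. Means carry an SD with n = 3 libraries per group in MOLM-13 and n = 2 in ER-Hoxa9.

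The levels of most members nevertheless leaned to the WM-1119 side, in the hydrolases more than in the V-ATPase by median. In MOLM-13, 55 of 58 tested members had a positive fold change, against 61.5% of all genes. The median was 0.18 over the members and 0.05 over all genes. In ER-Hoxa9, 55 of 56 had a positive fold change, against 71.9% of all genes, with medians of 0.31 and 0.12. Scaling the TPM columns by the median of their ratios moved the median of all genes by more than 0.1 in ER-Hoxa9, to -0.01. On that scale the members' median was 0.16 in ER-Hoxa9, with 45 of 56 positive against 47.4% of all genes. In MOLM-13 it was 0.11 on that scale, beside -0.01 for all genes, with 49 of 58 positive against 47.5%. SGSH in MOLM-13 and Mitf in ER-Hoxa9 passed the filter although 1 group's mean lay under 1 TPM.

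**Figure D1:**
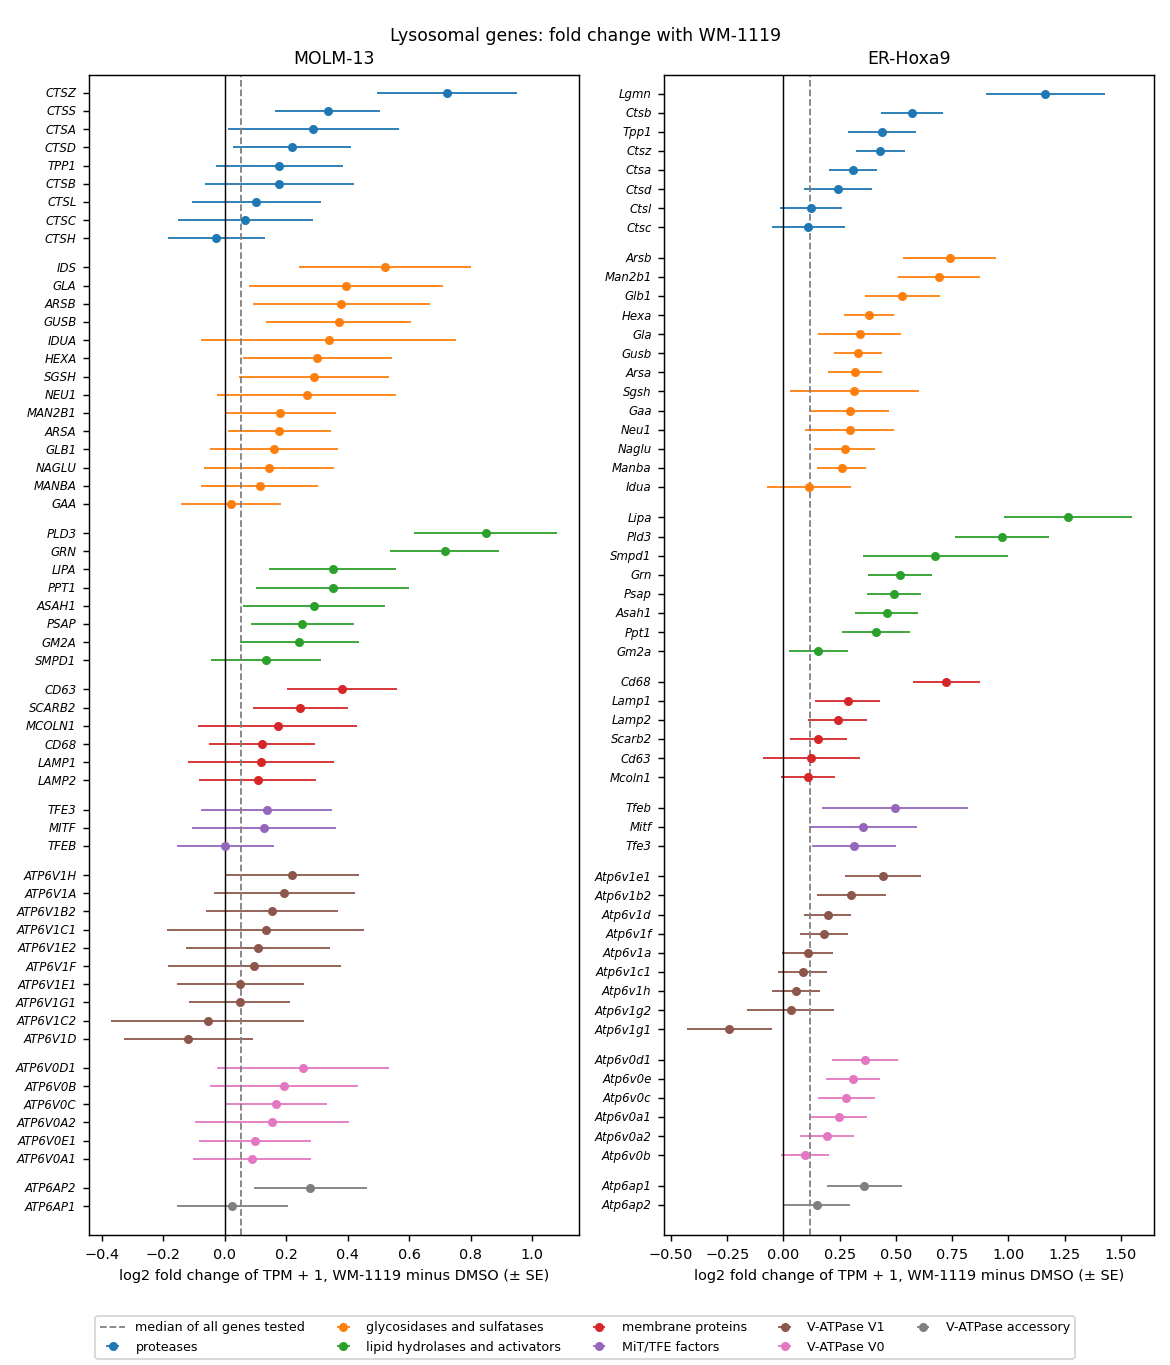
Log2 fold change of TPM + 1 (WM-1119 minus DMSO) and its limma SE for each tested member except the pseudogene entry Atp6v0c-ps2, by role, in MOLM-13 (left) and ER-Hoxa9 (right). The dashed line is the median of all genes tested (0.05 and 0.12); PLD3, CTSZ and GRN lie farthest right in MOLM-13, and Lipa, Lgmn and Pld3 in ER-Hoxa9.

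Summed over all members, MOLM-13 libraries held 5470, 4544 and 4777 TPM with WM-1119, against 4464, 4082 and 3621 TPM with DMSO. ER-Hoxa9 libraries held 5854 and 5039 TPM with WM-1119, against 4629 and 4421 TPM with DMSO. With TPM as deposited, the WM-1119 sums lay above the DMSO sums in both lines, with ratios of the means of 1.22 and 1.20. Median-of-ratios scaling divides the ER-Hoxa9 libraries by 1.08 and 1.03 in WM-1119 and by 0.937 and 0.971 in DMSO. On that scale the ER-Hoxa9 groups overlapped, the second WM-1119 library lying below the first DMSO library. The MOLM-13 groups stayed apart. In MOLM-13, with TPM as deposited, the lowest WM-1119 library and the highest DMSO library stood close together (4544 and 4464 TPM). TPM are shares of RNA, so more cells that express these genes and more of this RNA per cell cannot be told apart.

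Libraries differed in other ways. Ribosomal protein genes took 28.9% and 27.8% of TPM in WM-1119 libraries of ER-Hoxa9, against 33.9% and 29.9% in DMSO. Both DMSO libraries were thus higher there. In MOLM-13 these genes took 25.7% to 33.9% in WM-1119 and 26.7% to 39.8% in DMSO libraries, the 2 highest values being the replicate 3 libraries. These also held 209 (WM-1119) and 149 (DMSO) TPM of erythroid and megakaryocyte markers, against at most 1.08 TPM in the other MOLM-13 libraries. Without both, 51 of the 58 members had a positive fold change (56.3% of all genes). Leaving out DMSO replicate 3 by itself brought the MOLM-13 median to 0.08, within a range of 0.08 to 0.25 over the 6 libraries. Same-numbered MOLM-13 libraries deviated together from their group means, so values are also given by pair. KAT6A itself was at 18.4 ± 3.95 TPM in WM-1119 and 18.3 ± 4.63 TPM in DMSO in MOLM-13, and at 17.1 ± 0.653 TPM in WM-1119 and 15.4 ± 1.61 TPM in DMSO in ER-Hoxa9.

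With TPM as deposited, every WM-1119 library stood above every DMSO library in 8 MOLM-13 members: GRN, PLD3, CTSZ, PSAP, CD63, SCARB2, CTSS and ATP6V0C. That is 13.8% of those tested, against 4.54% of all genes, and 0 members showed the reverse, against 2.43%. Without both replicate 3 libraries the count was 15, against 13% of all genes, and 1 member (ATP6V1D) showed the reverse, against 9.22%. By pairs, 32 of 58 members were higher with WM-1119 in each of the 3 pairs, against 28.6% of all genes, and 0 were lower in each, against 14.4%. At an unadjusted limma p under 0.05, 3 members were higher (2.08% of all genes), namely GRN, PLD3 and CTSZ, and 0 were lower (0.965%). With the replicate number as a block these counts were 20 (13.2% of all genes) and 0 (4.91%). The block left 0 members called at an adjusted p under 0.05, the lowest being 0.114 for GRN; over all 18 settings the lowest value of a member ran from 0.114 to 1.00.

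In ER-Hoxa9, with TPM as deposited, 46 of 56 members had both WM-1119 libraries above both DMSO libraries (40.3% of all genes). In 0 members both lay below (7.94%). Such counts were not taken after median-of-ratios scaling in either line. At an unadjusted limma p under 0.05, 20 were higher (11.6% of all genes) and 0 lower (1.13%).

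Lipid hydrolases and their activators had medians of 0.32 in MOLM-13 and 0.51 in ER-Hoxa9, or 0.25 and 0.36 with median-of-ratios scaling. This role includes PLD3 and GRN, which are not lipid hydrolases themselves. Without both, the medians of the other 6 genes were 0.27 and 0.48, beside 0.28 and 0.32 for glycosidases and sulfatases, a grouping chosen after the values were seen. All 8 were tested in each line and all 8 had positive fold changes under both scalings. Each was higher with WM-1119 in every MOLM-13 pair. Their summed level was 1236 ± 149 TPM in WM-1119 and 852 ± 54.7 TPM in DMSO in MOLM-13, and 767 ± 27.0 TPM in WM-1119 and 557 ± 39.3 TPM in DMSO in ER-Hoxa9. Without PLD3 and GRN the MOLM-13 sums were 552 ± 41.8 TPM in WM-1119 and 451 ± 28.9 TPM in DMSO.

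GRN encodes progranulin, a secreted and lysosomal protein that is cut into granulins and supports lipid breakdown in lysosomes; the gene lies on GRCh38.p14 chromosome 17, 44345302 to 44353106. In MOLM-13 it was the most abundant member, at 543, 427 and 454 TPM in WM-1119, against 306, 299 and 259 TPM in DMSO. The groups did not overlap, the means were 474 ± 60.9 TPM in WM-1119 and 288 ± 25.4 TPM in DMSO, and the fold change was 0.72 ± 0.18. In ER-Hoxa9, Grn was at 155 and 125 TPM in WM-1119, against 100 and 94.1 TPM in DMSO, a fold change of 0.52 ± 0.14. The WM-1119 libraries were again the higher ones.

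PLD3, grouped here by its phospholipase D family, encodes a lysosomal nuclease that degrades single-stranded nucleic acids (chromosome 19, 40348695 to 40378485). It had the largest MOLM-13 difference, with 252, 149 and 227 TPM in WM-1119, against 118, 108 and 113 TPM in DMSO. The DMSO libraries were close to each other, while the second WM-1119 library was far below the other two. The fold change was 0.85 ± 0.23, and 0.77 without both replicate 3 libraries. Pld3 in ER-Hoxa9 was at 34.6 and 26.1 TPM in WM-1119, against 12.7 and 17.3 TPM in DMSO, a fold change of 0.97 ± 0.21.

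LIPA encodes lysosomal acid lipase, which frees cholesterol and fatty acids from lipoprotein lipids. Lipa had the largest ER-Hoxa9 difference, at 20.8 and 21.1 TPM in WM-1119, against 5.84 and 11.2 TPM in DMSO, a fold change of 1.27 ± 0.29. The WM-1119 libraries were alike and the DMSO libraries apart from each other. In MOLM-13, LIPA was at 76.2, 85.9 and 69.4 TPM in WM-1119, against 64.2, 70.3 and 48.0 TPM in DMSO, and the groups overlapped. PSAP, the precursor of saposins that present sphingolipids to their hydrolases, was at 234 ± 5.62 TPM in WM-1119 and 197 ± 21.3 TPM in DMSO in MOLM-13. In ER-Hoxa9, Psap was at 308 and 279 TPM in WM-1119, against 196 and 220 TPM in DMSO, a fold change of 0.49 ± 0.12. The remaining members of this role had fold changes between 0.13 (SMPD1, acid sphingomyelinase) and 0.35 (PPT1, a palmitoyl thioesterase) in MOLM-13. In ER-Hoxa9 they ran from 0.16 (Gm2a, the GM2 activator) to 0.68 (Smpd1).

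**Figure D2:**
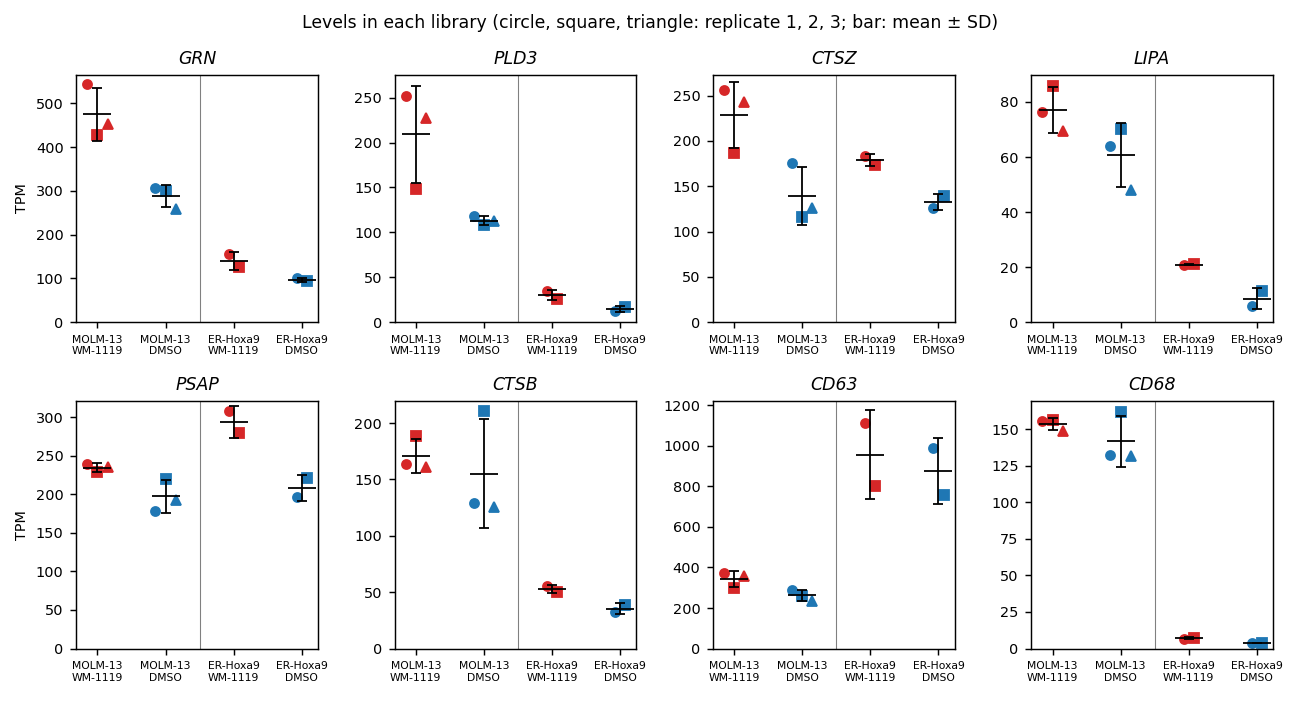
TPM in each library (points), with mean ± SD (bars), for 8 members in WM-1119 and DMSO libraries of MOLM-13 and ER-Hoxa9. GRN, PLD3, CTSZ and PSAP have groups that do not overlap in either line. CD63 overlaps in ER-Hoxa9, and LIPA, CTSB and CD68 overlap in MOLM-13.

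MiT/TFE factors are known to bind before lysosomal genes. Promoter sequences are therefore shown for PLD3 and GRN, with large MOLM-13 fold changes, and for GAA, near 0 and chosen after its value was seen. They are from RefSeq on GRCh38.p14 and cover 250 bases before to 50 bases after an annotated start, on the gene's strand; 50 of the 70 human members matched, with 73 windows. Capitals mark each stretch covered by TCACGTG or TCATGTG, read on either strand. PLD3 is shown by the first of its 2 windows (chr19:40348445-40348744, + strand), GAA, an alpha-glucosidase with the MOLM-13 fold change nearest 0 among hydrolases on the positive side, by chr17:80101331-80101630 (+ strand), and GRN by chr17:44345052-44345351 (+ strand).
PLD3: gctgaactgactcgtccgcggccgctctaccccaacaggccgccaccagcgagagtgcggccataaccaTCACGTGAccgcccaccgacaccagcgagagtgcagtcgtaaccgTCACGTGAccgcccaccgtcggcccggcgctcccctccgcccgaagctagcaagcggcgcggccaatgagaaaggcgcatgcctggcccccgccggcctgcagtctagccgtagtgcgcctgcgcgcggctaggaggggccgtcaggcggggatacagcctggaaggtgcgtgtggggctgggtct
GAA: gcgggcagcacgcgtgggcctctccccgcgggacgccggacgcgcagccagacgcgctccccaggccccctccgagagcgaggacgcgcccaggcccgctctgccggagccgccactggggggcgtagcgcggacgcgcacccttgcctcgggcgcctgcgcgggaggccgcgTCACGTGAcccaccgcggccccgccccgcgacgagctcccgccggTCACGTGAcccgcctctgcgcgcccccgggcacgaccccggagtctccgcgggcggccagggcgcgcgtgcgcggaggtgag
GRN: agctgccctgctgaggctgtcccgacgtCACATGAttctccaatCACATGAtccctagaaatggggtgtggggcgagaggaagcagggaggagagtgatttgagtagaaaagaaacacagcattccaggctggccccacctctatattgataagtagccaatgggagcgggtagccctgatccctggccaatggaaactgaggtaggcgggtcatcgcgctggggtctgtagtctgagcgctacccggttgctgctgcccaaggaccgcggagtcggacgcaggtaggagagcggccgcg

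PLD3 holds 2 marked stretches of the CLEAR core TCACGTG, 181 and 136 bases before the start, and GAA holds 2, at 77 and 32 bases. GRN holds 2 stretches of the related TCATGTG (the M-box core), read on the opposite strand, 222 and 206 bases before its start. In the CTSZ window (chr20:59007205-59007504, - strand) neither motif was found. TCACGTG was found in 13 of the 73 member windows (17.8%), against 3.71% of all 35116 windows, and TCATGTG in 7 (9.59%), against 2.92%. The full CLEAR palindrome, CACGTG with GT before it and AC after it, also contains TCACGTG; it was found in 4 (5.48%), against 0.353%.

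The MOLM-13 fold changes of members with and without the motifs were set side by side. The median was 0.22 for the 11 tested members with TCACGTG and 0.16 for the 31 without. It was 0.29 for the 7 with TCATGTG and 0.15 for the 35 without. The 4 members with the palindrome ran from 0.02 (GAA) to 0.85 (PLD3), so the same letters stood before the smallest positive hydrolase difference and the largest of all. A match in these windows is a description and not a binding site.

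Among proteases, CTSZ (cathepsin Z, a carboxypeptidase; chromosome 20, 58995185 to 59007254) differed most in MOLM-13. It stood at 256, 187 and 243 TPM in WM-1119, against 175, 116 and 126 TPM in DMSO. The groups did not overlap, and the fold change was 0.72 ± 0.23. Ctsz in ER-Hoxa9 was at 184 and 174 TPM in WM-1119, against 126 and 139 TPM in DMSO, a fold change of 0.43 ± 0.11.

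CTSS, the cathepsin that trims the invariant chain in antigen-presenting cells, was at 47.8, 37.4 and 40.9 TPM in WM-1119, against 34.4, 32.7 and 31.8 TPM in DMSO in MOLM-13. In ER-Hoxa9, Ctss stayed under 1 TPM in every library and was not tested. Legumain, an asparaginyl endopeptidase that activates cathepsins, showed the reverse order of levels. Lgmn was at 7.60 and 9.40 TPM in WM-1119, against 2.36 and 4.29 TPM in DMSO in ER-Hoxa9, a fold change of 1.17 ± 0.26. LGMN in MOLM-13 was at most 0.179 TPM and was listed at 0 in 2 DMSO libraries.

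Cathepsins B and D, both endopeptidases, differed less than CTSZ in MOLM-13. CTSB was at 171 ± 15.4 TPM in WM-1119 and 155 ± 48.2 TPM in DMSO in MOLM-13, where the groups overlapped. Ctsb was at 55.4 and 50.5 TPM in WM-1119, against 32.2 and 38.6 TPM in DMSO in ER-Hoxa9, a fold change of 0.57 ± 0.14. CTSD was at 184 ± 11.1 TPM in WM-1119 and 160 ± 28.0 TPM in DMSO in MOLM-13, and Ctsd at 438 ± 75.8 TPM in WM-1119 and 368 ± 13.2 TPM in DMSO in ER-Hoxa9. CTSH was the protease with a negative fold change in MOLM-13, -0.03 ± 0.16, at 23.8 ± 0.633 TPM in WM-1119 and 24.3 ± 2.05 TPM in DMSO. In ER-Hoxa9, Ctsh was at 0.0435 and 0.0597 TPM in WM-1119, was listed at 0 in both DMSO libraries, and was not tested. The role's median was 0.18 in MOLM-13 (9 tested) and 0.37 in ER-Hoxa9 (8 tested), or 0.11 and 0.22 with median-of-ratios scaling.

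Glycosidases and sulfatases, which strip sugars and sulfates from glycans and glycolipids, were positive in 14 of 14 tested genes in MOLM-13 (median 0.28) and in 13 of 13 in ER-Hoxa9 (median 0.32). With median-of-ratios scaling 13 and 12 were positive, GAA and Idua being negative there. None had groups without overlap in MOLM-13, but 10 of 14 were higher in each pair. IDS, the iduronate sulfatase that acts on heparan and dermatan sulfate, was at 10.7, 17.5 and 12.4 TPM in WM-1119, against 6.84, 13.2 and 7.87 TPM in DMSO. Every pair was higher in WM-1119 although the groups overlapped, and the fold change was 0.52 ± 0.28. GLA, the alpha-galactosidase that degrades globotriaosylceramide, was at 111, 81.9 and 71.5 TPM in WM-1119, against 95.9, 66.9 and 43.9 TPM in DMSO, again higher in each pair.

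In ER-Hoxa9 this role was led by Arsb, a sulfatase of dermatan sulfate, at 14.7 and 16.6 TPM in WM-1119, against 7.33 and 10.9 TPM in DMSO, a fold change of 0.74 ± 0.21. Man2b1, the acid alpha-mannosidase, was at 74.4 and 60.3 TPM in WM-1119, against 35.8 and 47.1 TPM in DMSO. Both had groups that did not overlap. Its human counterpart was among the 10 most abundant MOLM-13 members, with MAN2B1 at 202 ± 27.2 TPM in WM-1119 and 177 ± 15.6 TPM in DMSO. Gusb, beta-glucuronidase, was the most abundant of the role in ER-Hoxa9, at 169 and 182 TPM in WM-1119, against 135 and 143 TPM in DMSO. Ids was under 1 TPM in all 4 ER-Hoxa9 libraries.

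Membrane proteins differed less in median, 0.15 in MOLM-13 and 0.20 in ER-Hoxa9 (0.08 and 0.06 with median-of-ratios scaling). All 6 were tested in each line. CD63, a tetraspanin of late endosomes and granules, was at 372, 297 and 356 TPM in WM-1119, against 291, 260 and 236 TPM in DMSO in MOLM-13. The groups did not overlap, and the fold change was 0.38 ± 0.18. Cd63 was the most abundant member in ER-Hoxa9, at 1111 and 802 TPM in WM-1119, against 990 and 759 TPM in DMSO. Those groups overlapped, and its fold change of 0.12 ± 0.22 became -0.02 with median-of-ratios scaling.

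CD68, a heavily glycosylated macrophage lysosomal protein, separated the lines by level. It was at 153 ± 3.92 TPM in WM-1119 and 142 ± 17.2 TPM in DMSO in MOLM-13. In ER-Hoxa9, Cd68 was at 6.76 and 7.42 TPM in WM-1119, against 4.02 and 3.77 TPM in DMSO, a fold change of 0.72 ± 0.15. The tables were normalized separately, so levels across the lines are only set side by side. SCARB2, which carries glucocerebrosidase to lysosomes, was at 9.31 ± 0.907 TPM in WM-1119 and 7.67 ± 0.0896 TPM in DMSO in MOLM-13. LAMP1, the main glycoprotein of the lysosomal membrane, was at 210, 153 and 152 TPM in WM-1119, against 205, 134 and 140 TPM in DMSO. Its fold change of 0.12 ± 0.24 was smaller than its SE.

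The factors themselves differed little in MOLM-13. TFEB was at 17.0, 14.1 and 16.0 TPM in WM-1119, against 15.1, 15.5 and 16.3 TPM in DMSO, a fold change of 0.00 ± 0.16 (-0.06 with median-of-ratios scaling). TFE3 was at 13.8 ± 1.80 TPM in WM-1119 and 12.6 ± 3.0 TPM in DMSO, and MITF at 2.29 ± 0.484 TPM in WM-1119 and 2.02 ± 0.576 TPM in DMSO. In ER-Hoxa9, Tfeb was at 6.37 and 6.43 TPM in WM-1119, against 2.80 and 6.24 TPM in DMSO. Its fold change of 0.50 ± 0.32 rested on the first DMSO library, as the other DMSO library stood near the WM-1119 ones. Tfe3 was at 10.6 ± 0.623 TPM in WM-1119 and 8.46 ± 2.01 TPM in DMSO. Mitf was at 1.36 ± 0.279 TPM in WM-1119 and 0.845 ± 0.136 TPM in DMSO. RNA levels say nothing of where these proteins are in the cell, which is how mTORC1 is known to control them.

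V-ATPase subunits had smaller differences than the other members. Their median was 0.12 over 18 tested genes in MOLM-13 (0.06 with median-of-ratios scaling), against 0.23 over the 40 other members (0.16). It was 0.02 without DMSO replicate 3, 0.05 without WM-1119 replicate 1, 0.20 without DMSO replicate 1 and 0.20 without WM-1119 replicate 3 in MOLM-13. In ER-Hoxa9 the medians were 0.19 over 17 genes (0.05) and 0.34 over 38 other genes (0.21), and the V-ATPase median was 0.12 without WM-1119 replicate 1. The difference between these medians was not tested. Summed, V-ATPase entries held 1338 ± 109 TPM in WM-1119 and 1223 ± 141 TPM in DMSO in MOLM-13, and 1918 ± 179 TPM in WM-1119 and 1671 ± 34.0 TPM in DMSO in ER-Hoxa9.

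Of the V1 part, 8 of 10 tested genes were positive in MOLM-13 (median 0.10) and 8 of 9 in ER-Hoxa9 (median 0.11, or -0.04 with median-of-ratios scaling). ATP6V1F, the F subunit of the rotor, was the most abundant V1 gene in MOLM-13, at 175, 125 and 231 TPM in WM-1119, against 159, 128 and 202 TPM in DMSO. ATP6V1D, the central stalk subunit D, had the lowest MOLM-13 fold change, -0.12 ± 0.21, at 19.0 ± 2.18 TPM in WM-1119 and 20.9 ± 4.36 TPM in DMSO. Atp6v1g1, a peripheral stalk subunit, was the 1 tested ER-Hoxa9 member below 0, at 160 and 135 TPM in WM-1119, against 204 and 149 TPM in DMSO. Its fold change was -0.24 ± 0.19, and the groups overlapped. When each library was left out this ran from -0.47, without DMSO replicate 2, to -0.02, without DMSO replicate 1. Atp6v1e1, another stalk subunit, lay at the other end with 122 and 90.2 TPM in WM-1119, against 78.0 and 75.8 TPM in DMSO.

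Of the V0 part, all 6 tested genes were positive in each line, with medians of 0.16 in MOLM-13 and 0.26 in ER-Hoxa9. With median-of-ratios scaling these were 0.09 and 0.12, and 6 and 5 genes were positive. The V0 medians lay above those of the membrane proteins in both lines under both scalings (0.15 and 0.20 as deposited, 0.08 and 0.06 scaled). ATP6V0C, which forms the proton-carrying ring, was at 159, 166 and 188 TPM in WM-1119, against 159, 145 and 152 TPM in DMSO in MOLM-13. The lowest WM-1119 and the highest DMSO library were nearly equal. In ER-Hoxa9, Atp6v0c was at 395 and 333 TPM in WM-1119, against 302 and 294 TPM in DMSO, a fold change of 0.28 ± 0.13. Its pseudogene entry Atp6v0c-ps2 was at 39.0 and 21.0 TPM in WM-1119, against 14.2 and 20.9 TPM in DMSO, and reads of the parent and the copy may be split between them. Atp6v0e, a small membrane subunit, was at 196 and 197 TPM in WM-1119, against 147 and 171 TPM in DMSO. Atp6v0b, another ring subunit, was at 184 ± 9.28 TPM in WM-1119 and 172 ± 6.86 TPM in DMSO, and its fold change of 0.10 became -0.05 with median-of-ratios scaling. Accessory subunits were close to these, with medians of 0.15 over 2 genes in MOLM-13 and 0.25 over 2 in ER-Hoxa9 (0.08 and 0.11 with median-of-ratios scaling).

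**Figure D3:**
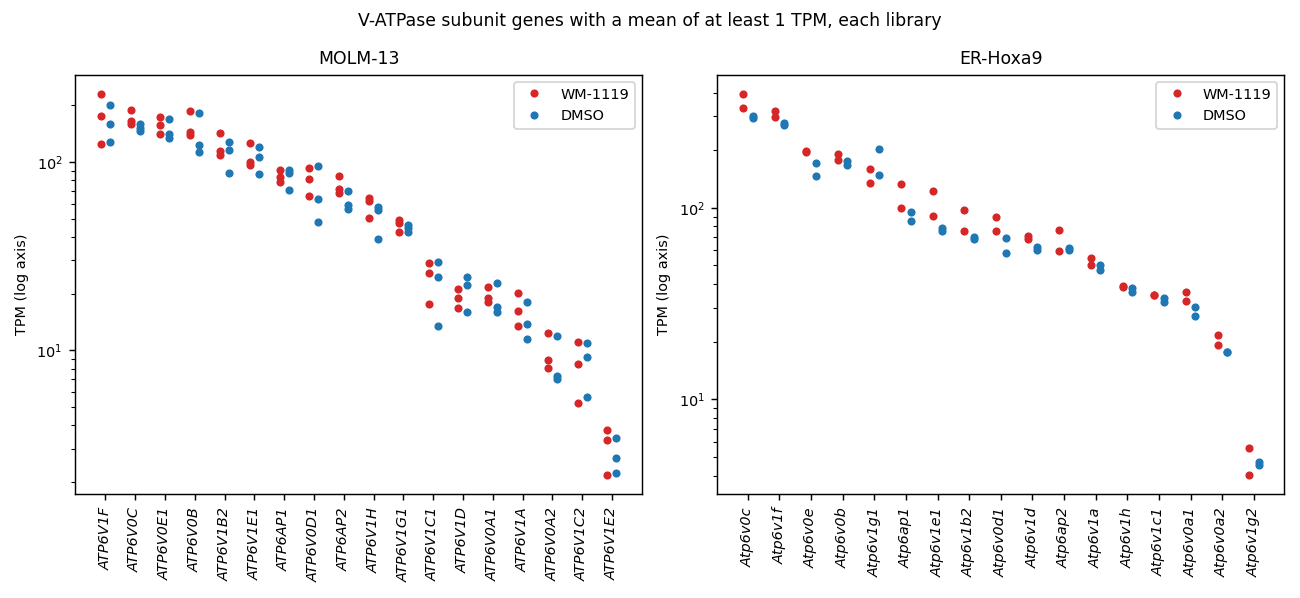
TPM (log axis) of each tested V-ATPase gene in every WM-1119 and DMSO library, ordered by level, in MOLM-13 (left) and ER-Hoxa9 (right). Points of the groups interleave for most MOLM-13 genes; Atp6v1g1 is the ER-Hoxa9 gene whose WM-1119 mean is the lower one.

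The isoforms of the B, C and a subunits were compared as shares of their subunit's TPM, and these shares lay close together in the 2 groups. ATP6V1B2 supplied all measured B-subunit TPM in both lines, and ATP6V1B1, the kidney-type isoform, was listed at 0. ATP6V1C2, an isoform of the C subunit known from lung and kidney, held 25.1% ± 2.40 of C-subunit TPM in WM-1119 and 27.9% ± 1.32 in DMSO in MOLM-13. In ER-Hoxa9, Atp6v1c2 reached at most 0.0454 TPM in a library. Of the a subunit, TCIRG1, which encodes the a3 form of osteoclast and lysosome pumps and is not a member by symbol, held 76.2% ± 1.82 in WM-1119 and 74.1% ± 2.00 in DMSO in MOLM-13. In ER-Hoxa9 it held 55.5% ± 2.73 in WM-1119 and 54.5% ± 0.727 in DMSO. Of 5 entries named as pseudogenes, antisense or readthrough RNAs, Atp6v0c-ps2 alone reached the filter. ATP6AP1L, counted with the accessory subunits and annotated by RefSeq as a transcribed pseudogene in human, did not reach it in either line.

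**Figure D4:**
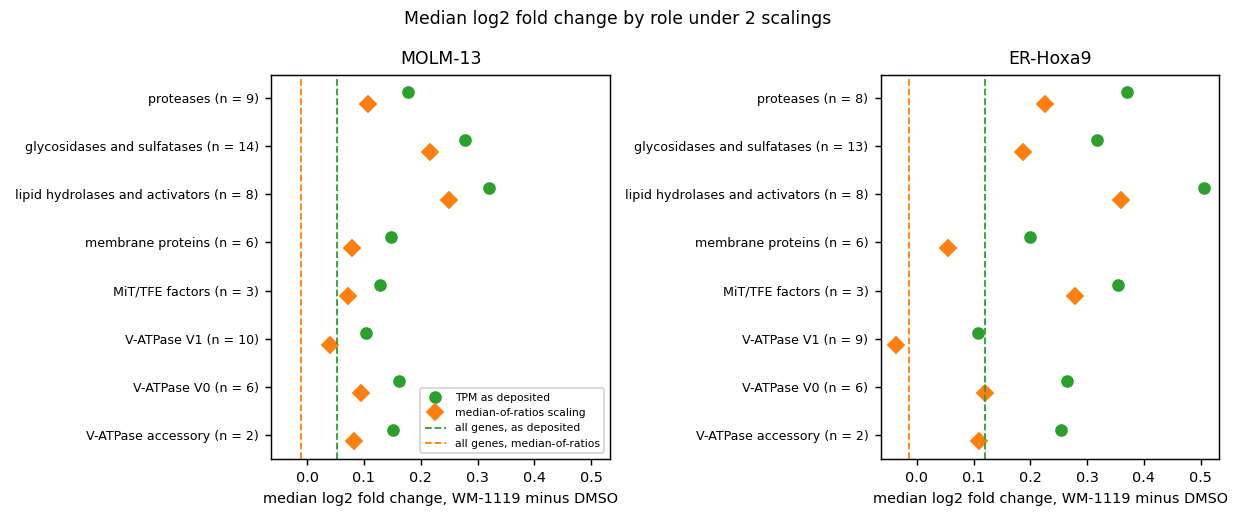
Median log2 fold change (WM-1119 minus DMSO) of the tested members by role, with TPM as deposited (circles) and after median-of-ratios scaling (diamonds), beside the all-gene medians (dashed). Lipid hydrolases and activators, PLD3 and GRN included, lie farthest right (0.32 and 0.51 as deposited), and the V1 part reaches -0.04 in ER-Hoxa9 after scaling.

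Set side by side, 53 members were tested in both lines and 51 of them had positive fold changes in both. With TPM as deposited, every WM-1119 library stood above every DMSO library in both lines in 6 of the 53 (11.3%). That compares with 2.22% of the 8726 genes tested in both. After median-of-ratios scaling PLD3, GRN and CTSZ stayed apart in both lines. ATP6V0C then overlapped in both lines, SCARB2 in ER-Hoxa9 and PSAP in MOLM-13. The share of all genes was not taken on that scale. Fold changes of the 53 correlated weakly between the lines (Pearson r = 0.38, Spearman rho = 0.25), beside 0.25 and 0.27 over all genes; genes share libraries and are not replicates. PLD3, GRN and CTSZ were high in both. LIPA, CD68 and MAN2B1 had ER-Hoxa9 fold changes of 1.27, 0.72 and 0.69, beside 0.35, 0.12 and 0.18 in MOLM-13. No test of the difference between the lines was run, as species, dose and table differ.

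**Figure D5:**
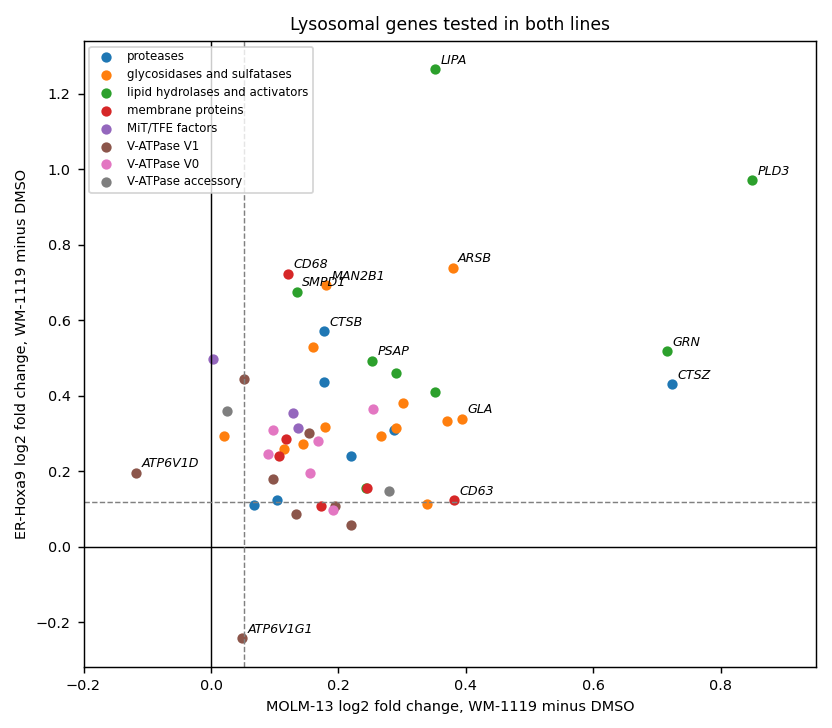
Log2 fold change (WM-1119 minus DMSO) in MOLM-13 (horizontal) and ER-Hoxa9 (vertical) for the 53 members tested in both lines, coloured by role, with all-gene medians dashed. Of these, 51 lie above 0 on both axes; ATP6V1D and ATP6V1G1 are the exceptions.

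Other genes of the pathway were read from lists chosen with earlier results of these data known, and limma called 0 of them in either line. At an unadjusted p under 0.05, the lists of hydrolases, membrane proteins, delivery, mTORC1 control and autophagy had 1 of 27, 0 of 24, 1 of 26, 0 of 25 and 0 of 30 tested genes higher in MOLM-13, against 2.08% of all genes. In ER-Hoxa9 they had 6 of 27, 4 of 22, 3 of 24, 5 of 24 and 2 of 30 higher, against 11.6% of all genes, and 0 were lower in either line. Of 27 other lysosomal hydrolases tested, 22 were positive in MOLM-13 (median 0.25) and 27 in ER-Hoxa9 (median 0.32). Their most abundant gene in MOLM-13, DPP7, a dipeptidyl peptidase, was at 131 ± 24.1 TPM in WM-1119 and 139 ± 23.0 TPM in DMSO. Medians were lower for other lysosomal membrane proteins (0.09 in MOLM-13 and 0.21 in ER-Hoxa9), delivery to lysosomes (0.08 and 0.15), mTORC1 and MiT/TFE control (0.08 and 0.10) and autophagy (0.04 and 0.04). The autophagy medians lay under the all-gene medians of 0.05 and 0.12, while single genes lay on both sides. With median-of-ratios scaling the hydrolase medians were 0.18 and 0.18, those of membrane proteins 0.02 and 0.07, of delivery 0.013 and 0.0059, of mTORC1 control 0.02 and -0.03 and of autophagy -0.03 and -0.09, beside -0.01 for all genes in each line.

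Laptm5, a lysosomal membrane protein of blood cells, was at 438 and 380 TPM in WM-1119, against 299 and 298 TPM in DMSO in ER-Hoxa9. Sqstm1, the autophagy receptor p62, had a lower mean with WM-1119 there, at 424 and 304 TPM in WM-1119, against 592 and 380 TPM in DMSO, with groups that overlapped. Chosen after their values were seen, Tfec, another gene of the MiT/TFE family, was at 12.7 and 12.6 TPM in WM-1119, against 3.04 and 6.58 TPM in DMSO. Sort1, a sorting receptor for lysosomal proteins, was at 15.7 and 12.3 TPM in WM-1119, against 3.95 and 7.09 TPM in DMSO. Neither passed (limma adjusted p = 0.309 and 0.305).

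Markers of maturing myeloid cells were read beside these genes. In MOLM-13 the sums of the neutrophil and general myeloid lists were higher in every WM-1119 library, while those of the monocyte list overlapped. In MOLM-13, neutrophil maturation markers summed to 82.4 to 126 TPM in WM-1119 and 37.8 to 68.4 TPM in DMSO. Of the 20 listed, 7 were tested, all 7 positive (61.5% of all genes) with a median of 0.78, and LCN2 was listed at 0. Under the filter, MMP9 and PGLYRP1 had lower means in WM-1119, and LTF, CAMP, MMP8, FPR1, FPR2 and PADI4 higher ones. In ER-Hoxa9 the neutrophil markers summed to 267 to 449 TPM in WM-1119 and 234 to 271 TPM in DMSO. Of 10 tested there, 9 were positive (71.9% of all genes), and Fpr1 and Ly6g were listed at 0. General myeloid markers summed to 3270 to 4670 TPM in WM-1119 and 1610 to 3225 TPM in DMSO in MOLM-13, where LYZ, lysozyme, made up 2759 ± 612 TPM in WM-1119 and 1347 ± 689 TPM in DMSO and the median of the 11 tested was 0.18. They summed to 2826 to 2928 TPM in WM-1119 and 1481 to 2494 TPM in DMSO in ER-Hoxa9, where Lyz2 was listed at 0. Monocyte and macrophage markers summed to 101 to 139 TPM in WM-1119 and 73.7 to 131 TPM in DMSO in MOLM-13, with C1QB listed at 0. In ER-Hoxa9 these summed to 116 to 128 TPM in WM-1119 and 101 to 131 TPM in DMSO, with Marco and C1qa listed at 0. Ccr2, a chemokine receptor, made up most of that sum, at 79.9 ± 2.46 TPM in WM-1119 and 86.9 ± 21.3 TPM in DMSO. Of the 6 monocyte markers tested there, 4 were positive, against 71.9% of all genes, with a median of 0.50. In 3 of them both WM-1119 libraries lay above both DMSO libraries, against 40.3% of all genes. In MOLM-13, 6 of 8 were positive, against 61.5% of all genes, with a median of 0.52. Every WM-1119 library stood above every DMSO library in 3 (4.54% of all genes) and below in 1 (2.43%). B-cell markers in ER-Hoxa9 summed to 49.4 to 56.5 TPM in WM-1119 and 20.8 to 32.5 TPM in DMSO, with Ms4a1 listed at 0. Erythroid and megakaryocyte markers summed to 50.2 to 58.8 TPM in WM-1119 and 24.5 to 45.9 TPM in DMSO there. Sums of mast cell markers overlapped (202 to 631 TPM in WM-1119 and 407 to 665 TPM in DMSO). Those of T and NK cells and of stroma and epithelium overlapped as well. The part of these markers in the lysosomal values was not tested.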

How the data were processed

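The authors deposited 1 table of TPM per line, made with Salmon, with hg38 and mm10 named, per the submitters' processing notes; its version and the annotation: not given in the sources used here. TPM keep no read number, so depth and its precision are unknown. The mouse table heads its columns with another line name than the labels; they were taken as ER-Hoxa9, the only mouse line; 0 columns were left unassigned. Members and lists were chosen with earlier results of these data known. For each line, limma 3.58.1 (eBayes with trend, no block, R 4.3.3) was fitted to log2(TPM + 1) where a gene's mean reached 1 TPM, with Benjamini-Hochberg adjustment over all genes, and tested on simulated data. Named were the 5 tested members with the largest fold change per direction, the 10 most abundant, TFEB, TFE3, MITF and KAT6A, and each list's most abundant gene in a line, some given by list only; other members named were chosen after their values were seen. Same-numbered MOLM-13 libraries deviated together (correlations across genes of 0.52, 0.44 and 0.61), so their numbers were taken as pairs; the labels do not say what they share. Alternatives were pseudocount 0.1, no filter or one at 5 TPM, median-of-ratios scaling, removal of small RNA entries, no trend, a replicate block and leaving out libraries. The count without both replicate 3 libraries was added after seeing the data. Strand handling is not given, so a gene and an antisense partner cannot be told apart. Promoters and locations are RefSeq, GRCh38.p14. Figures used matplotlib 3.10.9 in Python 3.11.15.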

Additional observations from a re-analysis of the deposited data

How the results depend on the processing

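Under every setting tried, limma called 0 members in either line. Single values were followed only for the members named by largest fold change, by level or as factors. Of these values 511 kept their direction and side of the threshold while 25 changed sign. Over its 13 settings in ER-Hoxa9, the lowest adjusted p of a member ran from 0.112 (without DMSO replicate 2) to 0.774. Leaving out an ER-Hoxa9 library leaves 1 sample in that group, which is assumed to vary like the other group, so those fits say little. The MOLM-13 median ran from 0.078 (without DMSO replicate 3) to 0.25 when each library was left out, and the ER-Hoxa9 median from 0.25 to 0.39. Median-of-ratios scaling, with or without the replicate block, brought the ER-Hoxa9 median to 0.16 and that of its V-ATPase subunits to 0.052, Cd63 to -0.024 and Atp6v0b to -0.049. It brought MOLM-13 TFEB to -0.064, and removing small RNA entries brought it to -0.011. With the replicate block and without a pair, TFEB was at -0.077 (without pair 1) and CTSH at 0.059 (without pair 2). Without both replicate 3 libraries, every WM-1119 library stood above every DMSO library in 15 MOLM-13 members, fewer libraries having to be separated. ATP6V1D alone showed the reverse, and the shares of all genes in both directions are given in the Results. In ER-Hoxa9 the deviations of same-numbered libraries correlated at 0.21. With 2 libraries per group both pairs must give this same value, so the numbers were not taken to pair the libraries. The replicate block had 24 members higher at an unadjusted limma p under 0.05, against 15.5% of all genes, and 0 were called. Leaving out each library gave ranges across 0 for ATP6V1D (-0.29 to 0.000186), ATP6V1C2 (-0.30 to 0.20), CTSH (-0.072 to 0.038), ATP6V1F (-0.12 to 0.32), LAMP1 (-0.035 to 0.31), MITF (-0.034 to 0.24), TFE3 (-0.025 to 0.30), TFEB (-0.054 to 0.073) and Cd63 (-0.11 to 0.36). The cause of these shifts was not tested. TPM hold no read numbers, so what depth limits could not be given.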
